A study of Mus musculus and Bos taurus with 26 samples.

Results

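The subject here is a set of 9 mouse genes, and their 9 bovine counterparts, that code for replication-independent histone variants, read in polyA RNA of preimplantation embryos. The members were chosen by name, as known genes of this kind: H1f0, H1foo, H2afz, H2afv, H2afx, H2afy, H2afj, H3f3a and H3f3b. All 9 were found among the 27988 genes of the mouse values, where 6 carry newer symbols (H1f8 for H1foo, H2az1 for H2afz, H2az2 for H2afv, H2ax for H2afx, Macroh2a1 for H2afy and H2aj for H2afj), and all 9 were found under their upper-case names among the 21577 bovine genes. Each of them passed the filter of at least 1 FPKM (fragments scaled by transcript length and library size, so that genes can be compared in level) in at least 2 libraries of its species.

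Most histone mRNA comes from clustered genes that are switched on in S phase and end in a stem-loop, and oligo(dT) selection largely misses it. Variant genes stand outside those clusters, give ordinary polyadenylated mRNA, and supply histones that are placed into chromatin at any time of the cell cycle by dedicated chaperones. In early mammalian embryos the oocyte's linker histone is exchanged for somatic ones, H3.3 is laid down on the paternal genome after fertilization, and transcription from the embryo's own genome (zygotic genome activation) begins. HDAC1 and HDAC2, the class I histone deacetylases at issue, are catalytic subunits of several corepressor complexes.

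Mouse embryos made up 22 libraries in 11 groups of 2, and cattle 4 libraries in 2 groups of 2. Zygotes received mRNA for mutant or wild-type (WT) Hdac1, mRNA for mutant or WT Hdac2, or water (H2O), and were taken as late 2-cell embryos at 36 h. Hdac1 mutant and Hdac1 WT embryos were in addition collected at 24 h as early 2-cell embryos. Another pair of groups had mutant Hdac1 mRNA as zygotes and then a second injection of both blastomeres with Kdm5b mRNA or H2O. The last mouse pair was grown in KSOM with FK228 at 50 nM or with its solvent DMSO, and the bovine pair was grown with FK228 at 50 nM or with DMSO in BO-IVC medium to the 8/16-cell stage at 72 h. All of these embryos keep their own Hdac1 and Hdac2 genes. Injected mRNA adds to them, and the labels name neither the mutations nor the strain.

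The injected genes checked the labels: Hdac1 was higher by 4.95 on the log2 scale in Hdac1 WT than in H2O embryos, Hdac2 by 6.10 in Hdac2 WT than in H2O embryos, and Kdm5b by 3.17 after Kdm5b than after H2O. Levels of the injected gene also differed between mutant and WT late embryos. Hdac1 was higher by 0.76 with mutant than with WT Hdac1, and Hdac2 by 0.55 with mutant than with WT Hdac2. The gene not injected differed too: Hdac2 was higher by 1.31 with mutant than with WT Hdac1, and Hdac1 lower (−0.51) with mutant than with WT Hdac2. With FK228 against DMSO in mouse Hdac1 was at −0.87 and Hdac2 at 0.69. All 8 listed 2-cell stage genes reached 1 FPKM in every mouse library. Late libraries of mutant and FK228 embryos held more genes at 1 FPKM (13412 to 14554) than those of WT, DMSO and H2O embryos (11284 to 12105), and early libraries held 10704 to 11179. Bovine libraries held 11598 to 12141. Replicates correlated across genes with r of 0.933 to 0.987 in mouse and 0.976 to 0.980 in cattle. FPKM give no absolute depth, and relative depth could be read only roughly, from 0.659 to 1.31 of the typical mouse library. FPKM are shares of a library, so less of a transcript in each cell and fewer cells that carry it cannot be told apart, and neither can a change in total RNA per embryo.

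The starts of 6 of these genes are shown first, because they form 3 pairs that are compared in level further on: the H3.3 genes H3f3a and H3f3b, the H2A.Z genes H2az1 and H2az2, and the linker genes H1f8 and H1f0. Each run holds 300 bases from RefSeq (GRCm38.p6), 250 before to 50 after the annotated start, 5′ to 3′ on the gene's own strand. Capitals mark 6 motifs, each searched on both strands (a match on the other strand reads as its reverse complement). They are the CAAT box, spelled CCAAT, and the TATA box of core promoters, spelled TATAAA. The GC box known as a binding sequence of Sp1 is GGGCGG, and the cyclic AMP response element is TGACGTCA. The E-box of basic helix-loop-helix proteins was searched as CACGTG, and the H1 box first described in linker histone promoters as AAACACA. Capitals run together where GC boxes overlap. The windows are chr1:180813556-180813855 (minus strand) for H3f3a, chr11:116024455-116024754 (minus) for H3f3b, chr3:137864237-137864536 (plus) for H2az1, chr11:6444394-6444693 (minus) for H2az2, chr6:115944681-115944980 (plus) for H1f8 and chr15:79027962-79028261 (plus) for H1f0.
H3f3a: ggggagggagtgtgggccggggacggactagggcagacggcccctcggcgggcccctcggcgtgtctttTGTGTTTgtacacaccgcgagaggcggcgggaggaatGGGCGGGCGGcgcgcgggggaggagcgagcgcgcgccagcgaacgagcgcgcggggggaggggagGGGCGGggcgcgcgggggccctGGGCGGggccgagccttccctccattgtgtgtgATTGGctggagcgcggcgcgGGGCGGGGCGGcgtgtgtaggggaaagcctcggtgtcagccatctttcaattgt
H3f3b: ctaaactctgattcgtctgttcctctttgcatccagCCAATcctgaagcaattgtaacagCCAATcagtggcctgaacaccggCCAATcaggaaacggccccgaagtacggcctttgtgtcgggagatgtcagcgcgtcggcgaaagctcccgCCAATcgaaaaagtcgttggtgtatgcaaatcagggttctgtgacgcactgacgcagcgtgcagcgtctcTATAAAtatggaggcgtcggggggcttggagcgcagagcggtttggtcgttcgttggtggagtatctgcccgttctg
H2az1: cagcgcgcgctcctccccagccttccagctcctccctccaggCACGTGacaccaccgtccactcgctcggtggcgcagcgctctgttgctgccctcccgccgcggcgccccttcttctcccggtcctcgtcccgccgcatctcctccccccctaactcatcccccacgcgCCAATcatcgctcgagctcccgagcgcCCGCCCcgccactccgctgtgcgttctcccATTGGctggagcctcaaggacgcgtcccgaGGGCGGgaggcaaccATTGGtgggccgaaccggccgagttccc
H2az2: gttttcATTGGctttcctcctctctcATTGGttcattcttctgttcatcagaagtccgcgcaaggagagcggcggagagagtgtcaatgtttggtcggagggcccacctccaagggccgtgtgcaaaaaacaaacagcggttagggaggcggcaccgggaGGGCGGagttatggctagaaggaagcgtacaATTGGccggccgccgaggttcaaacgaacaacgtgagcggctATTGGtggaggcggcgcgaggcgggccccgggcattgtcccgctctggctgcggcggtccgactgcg
H1f8: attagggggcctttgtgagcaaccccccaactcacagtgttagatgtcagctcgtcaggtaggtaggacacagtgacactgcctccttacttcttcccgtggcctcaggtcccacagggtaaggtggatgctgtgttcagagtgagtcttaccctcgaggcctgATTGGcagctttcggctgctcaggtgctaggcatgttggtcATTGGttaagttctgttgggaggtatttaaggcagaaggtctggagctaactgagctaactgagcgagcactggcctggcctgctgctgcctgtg
H1f0: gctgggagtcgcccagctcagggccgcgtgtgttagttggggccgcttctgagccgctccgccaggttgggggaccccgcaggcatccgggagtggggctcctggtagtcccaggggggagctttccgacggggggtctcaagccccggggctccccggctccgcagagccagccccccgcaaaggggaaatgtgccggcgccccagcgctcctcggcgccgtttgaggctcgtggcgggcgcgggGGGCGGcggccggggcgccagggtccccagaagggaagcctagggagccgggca

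The H3f3a window was 74% G and C with 39 CpG and held 6 GC boxes, 1 CCAAT, 1 H1 box and no TATA box. The H3f3b window, which lies inside the annotated span of the gene, was 55% G and C with 24 CpG and held a TATA box whose first base is 27 before the start, 4 CCAAT, and no GC box. Both H2A.Z windows held several CCAAT (3 in H2az1 and 4 in H2az2) with GC boxes (2 and 1), and H2az1 had the only E-box among the 8 members with an entry. The linker pair shared no motif of the search: H1f8 had 2 CCAAT with 5 CpG, and H1f0 had 1 GC box with 29 CpG. Among the others, H2aj held 3 CCAAT and 2 GC boxes, and Macroh2a1 2 GC boxes. Of 32851 RefSeq promoters of the same length 37.4% held CCAAT, 35.7% the GC box, 13.6% the TATA box, 7.15% the E-box, 7.18% the H1 box and 1.79% the cyclic AMP element, and the median promoter was 52.7% G and C with 7 CpG. A match is a run of letters and not a measured site.

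All 9 mouse members are protein coding. H1f0 lies at chr15:79028212-79030504, H1f8 at chr6:115944931-115950242, H2az1 at chr3:137864487-137866922, H2az2 at chr11:6427226-6444511, H2ax at chr9:44334715-44336077, Macroh2a1 at chr13:56073622-56135626, H2aj at chr6:136808248-136810074, H3f3a at chr1:180802560-180813605 and H3f3b at chr11:116021961-116026039 (RefSeq, GRCm38.p6). Antisense genes overlap H1f0, H2ax, Macroh2a1, H2aj and H3f3a in GENCODE M21, and since no strand step is described their reads cannot be told apart. Transcripts of H3f3a matched 20 annotated copies at 95% identity or more over at least 150 bases, all of them processed pseudogenes, of which 9 have values of their own. Those copies summed to a median of 9.86% of the FPKM of H3f3a over libraries and to 51.9% in FK228 replicate 2, so the level of H3f3a depends on how reads were shared out. H2az1 had 3 copies and H3f3b 2, with 1 of each in the values and at most 9.27% and 9.24% of the member's FPKM. The other members had no copy by this rule. Members also resemble each other: H3f3a and H3f3b transcripts were 76.9% identical over 412 aligned bases, H2az1 and H2az2 79.3% over 386, and H2aj and H2ax 90.3% over 371.

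**Figure D1:**
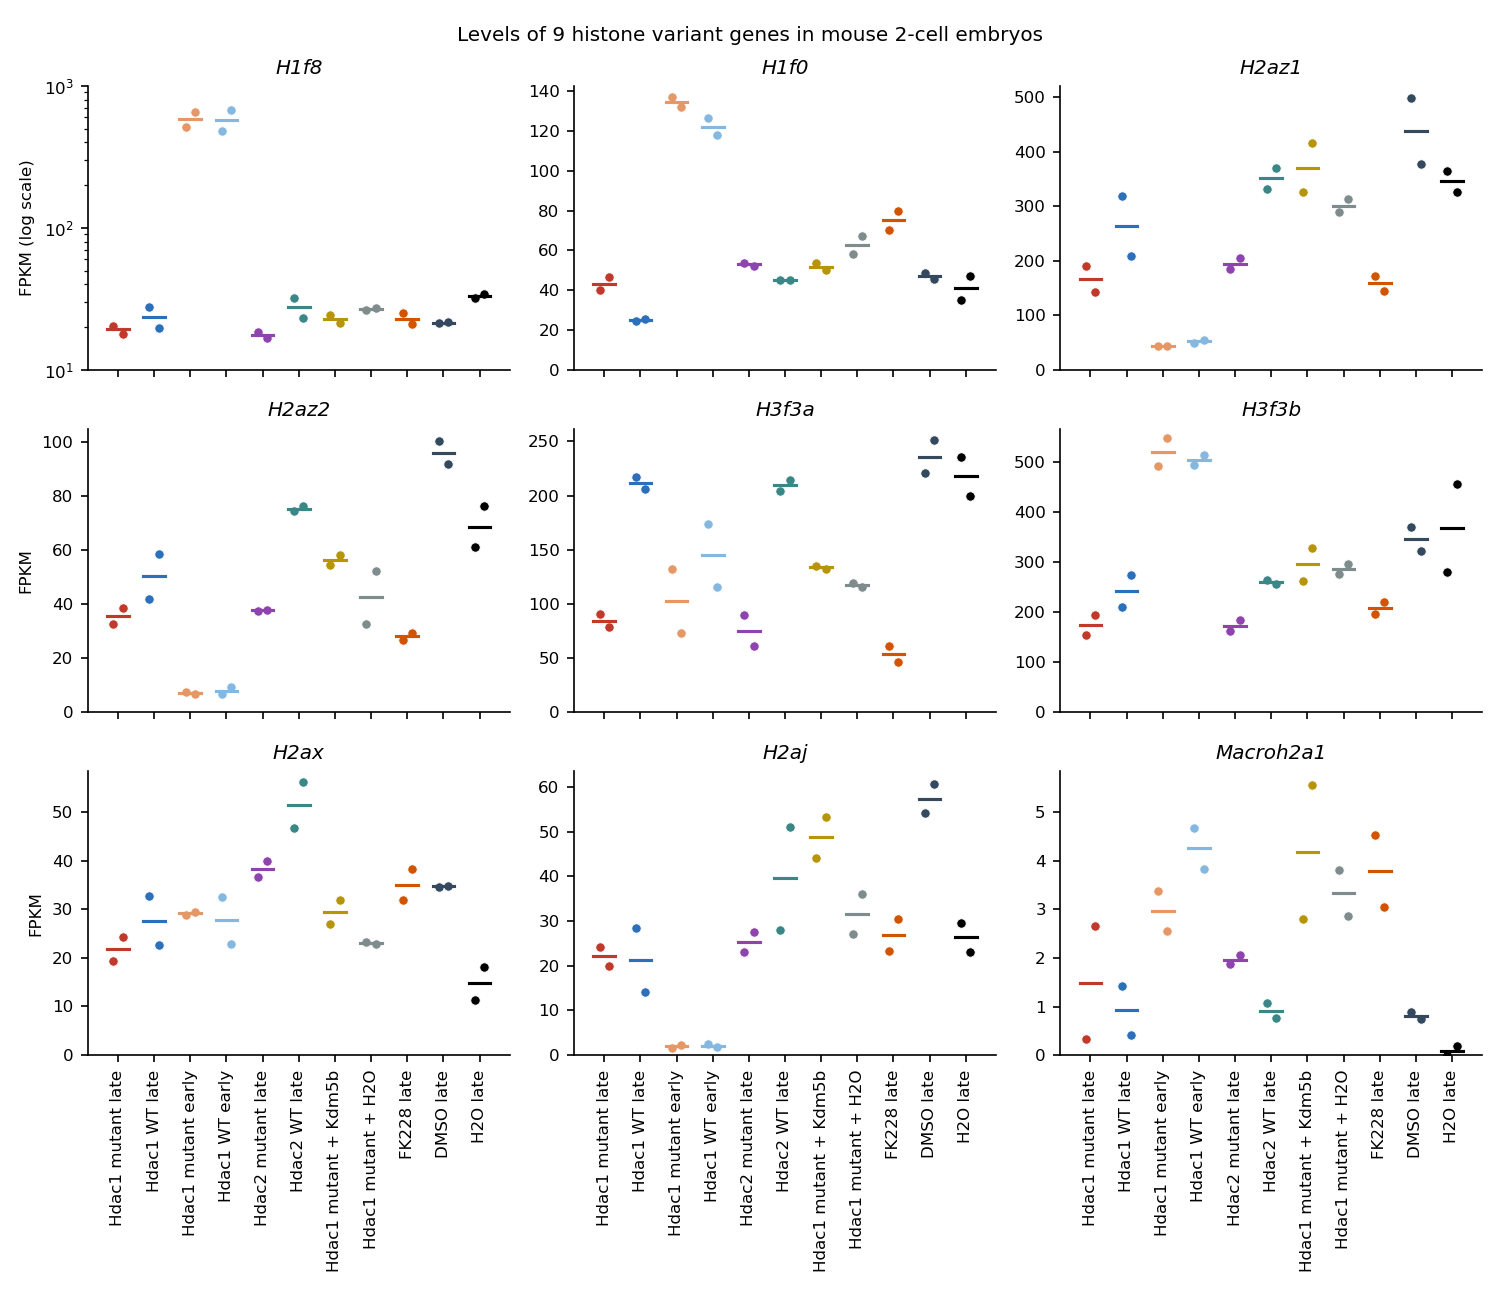
FPKM of the 9 members in mouse libraries, by group. Dots are libraries, bars the mean of 2, and the axis of H1f8 is logarithmic. H1f8, H1f0 and H3f3b stand highest at the early stage, H2az1, H2az2 and H2aj stand lowest there, and H3f3a is lower in mutant and FK228 than in WT and DMSO late embryos.

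Between the early and late 2-cell stages most of the set changed in level. In Hdac1 WT embryos 3 of 9 members rose and 4 fell, where 28.8% of the 17336 genes tested rose and 28.1% fell, 56.8% in all (limma on log2(FPKM + 1), Benjamini-Hochberg adjusted p under 0.05). The linker transcripts, Macroh2a1 and H3f3b fell, the H2A.Z pair and H2aj rose, and H2ax and H3f3a passed in neither direction. At the late stage H2az1, H3f3b and H3f3a were the most abundant members of Hdac1 WT embryos, at 264 ± 78.1, 243 ± 45.8 and 212 ± 7.68 FPKM (SD, n = 2 in every group), and their libraries overlapped. H2az2 followed at 50.3 ± 11.8 without overlap, then H2ax, H1f0, H1f8 and H2aj between 27.6 and 21.4, whose libraries overlapped, and Macroh2a1 last at 0.920 ± 0.709. Early Hdac1 WT embryos had another order, led by H1f8 at 579 ± 134 and H3f3b at 505 ± 13.4, which overlapped. H3f3a (145 ± 41.6) and H1f0 (122 ± 5.80) overlapped below them, and H2az1, H2ax, H2az2, Macroh2a1 and H2aj came after in that order without overlap, down to 2.08 ± 0.479 FPKM.

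H1f8, which encodes the oocyte's linker histone, was at 27.8 and 19.6 FPKM in late Hdac1 WT embryos, against 484 and 674 in early ones. That is a fall by 4.55 ± 0.20 on the log2 scale (± SE; adjusted p = 3.85e-11, limma), and 0.121% of the genes tested had a lower value. In embryos with mutant Hdac1 it was at 20.5 and 18.0 late and at 513 and 659 early, a log2 change of −4.85 ± 0.20 (adjusted p = 6.97e-11, limma). Late and early libraries did not overlap with either mRNA.

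H1f0, which encodes the somatic linker variant H1.0 of slowly dividing and differentiated cells, was at 24.6 and 25.5 FPKM in late Hdac1 WT embryos, against 126 and 118 in early ones (log2 change −2.24 ± 0.13, adjusted p = 1.12e-09, limma). In Hdac1 mutant embryos it was at 40.1 and 46.5 late and 137 and 132 early (−1.62 ± 0.13, adjusted p = 5.21e-08, limma). H1f0 thus made up 47.0% and 56.5% of the summed FPKM of the linker pair in late Hdac1 WT libraries, against 20.7% and 14.9% in early ones. Listed oocyte transcripts, led by Oosp1, summed to 543 to 568 FPKM in late and 3447 to 3486 in early Hdac1 WT libraries. Of 9 tested 7 fell and 1 rose, where 28.1% of all genes fell and 28.8% rose.

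Among H2A variants, H2az1, the main H2A.Z gene, was at 319 and 208 FPKM in late Hdac1 WT embryos, against 50.0 and 54.3 in early ones (log2 change 2.29 ± 0.20, adjusted p = 6.93e-08, limma). Its partner H2az2 was at 42.0 and 58.6 late, against 6.75 and 9.41 early (2.49 ± 0.21, adjusted p = 4.61e-08, limma). H2aj, a variant close in sequence to canonical H2A, was at 28.5 and 14.2 late, against 2.42 and 1.74 early, the widest rise of the set (2.79 ± 0.30, adjusted p = 9.66e-07, limma). For these 3 genes no late library came near an early one. The late replicates of H2aj spread widely, with an SD of 10.1 FPKM around 21.4.

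Macroh2a1, which encodes macroH2A1 with its large non-histone domain, was low throughout, at 1.42 and 0.419 FPKM in late and 4.68 and 3.83 in early Hdac1 WT embryos (−1.50 ± 0.39, adjusted p = 0.00367, limma). Without late replicate 2 its adjusted p was 0.0540. H2ax, whose product is phosphorylated at DNA breaks and whose gene also gives a stem-loop mRNA that oligo(dT) misses, was at 32.7 and 22.6 late and 32.5 and 23.0 early. Its log2 change was −0.01, with a 95% interval of −0.48 to 0.46, and the libraries overlapped.

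The H3.3 genes code for the same histone, and the call fell on H3f3b alone of the pair. H3f3b was at 210.3 and 275 FPKM in late Hdac1 WT embryos, against 495 and 514 in early ones (−1.07 ± 0.20, adjusted p = 0.000217, limma). H3f3a was at 217 and 206 late and 174 and 115 early, without overlap, and its log2 change of 0.57 ± 0.25 did not pass (adjusted p = 0.0613, limma). With the FPKM of its copies added, an alternative chosen after seeing the data, it was 0.61 and passed (adjusted p = 0.00561, limma).

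In Hdac1 mutant embryos 3 members rose and 3 fell between the stages, where 40.6% of genes rose and 25.8% fell, 66.4% in all. Of the genes called 61.1% rose, against 47.6% under quantile normalization. H2aj, H2az2 and H2az1 rose by 2.96, 2.17 and 1.90, and H3f3b was at 154 and 194 late and 493 and 548 early (−1.58 ± 0.20, adjusted p = 4.02e-06, limma). H3f3a was at 90.7 and 78.7 late and 133 and 72.9 early, which overlapped (−0.22 ± 0.25, adjusted p = 0.457, limma). Under quantile normalization the falls of H3f3b did not pass in WT (−0.19) or mutant embryos (−0.14), and H3f3a stood at 0.57 in mutant embryos (adjusted p = 0.0402, limma). Blood genes summed to 102 to 114 FPKM in late and 6.78 to 10.5 in early Hdac1 mutant libraries, with 4 of 4 tested higher, and oocyte transcripts to 512 to 589 late and 3186 to 3433 early, with 9 of 9 lower. Their part was not tested.

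The comparison of Hdac1 mutant with Hdac1 WT mRNA at the late 2-cell stage asked what the mutant changes when the genome is being activated. H3f3a and H2az1 fell and H1f0 rose, and the other 6 members did not pass. With median-ratio scaling 5 members were called, H2az2 and H3f3b in addition. In the group given mutant Hdac1 and then H2O, H3f3a was at 119.5 and 116 FPKM, below both Hdac1 WT libraries. There H2az1 (289 and 313) and H2az2 (32.6 and 52.5) overlapped Hdac1 WT, and H3f3b (277 and 297) lay above it. That group was not tested against Hdac1 WT. The 9 members together made up 0.205% and 0.216% of all FPKM in Hdac1 mutant libraries, against 0.272% and 0.266% in Hdac1 WT libraries. Their calls were 3 of 9, where 52.1% of all genes were called, 30.5% higher and 21.6% lower. The groups did not overlap for 5 members, but overlap was not counted over all genes. Counts of members without overlap, here and below, therefore cannot show a trait of the set. The median member stood at −0.31 and the median gene tested at 0.17 on the log2 scale. Quantile normalization moved the median gene to −0.06, and the share of called genes that rose to 48%, beside 58.5%.

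H3f3a was at 90.7 and 78.7 FPKM in Hdac1 mutant embryos, against 217 and 206 in Hdac1 WT embryos. No library overlapped, and the log2 change was −1.31 ± 0.25 (adjusted p = 0.000357, limma), 0.400 of the WT mean. With copies added it was −1.30. H3f3b was at 154 and 194 in mutant and 210.3 and 275 in WT embryos, again without overlap, yet its change of −0.47 ± 0.20 did not pass (adjusted p = 0.0556, limma) and was 0.07 under quantile normalization. With median-ratio scaling it was −0.52 and passed (adjusted p = 0.0272, limma).

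H2az1 was at 191 and 142 FPKM in mutant and 319 and 208 in WT embryos (−0.64 ± 0.20, adjusted p = 0.0127, limma). This call rests on single libraries: the adjusted p was 0.141 without mutant replicate 2, 0.201 without WT replicate 1, 0.112 in a fit of these 4 libraries alone and 0.808 under quantile normalization. H2az2 was at 32.8 and 38.5 in mutant and 42.0 and 58.6 in WT embryos (−0.47 ± 0.21, adjusted p = 0.0721, limma). With median-ratio scaling this was −0.52 and passed (adjusted p = 0.0432, limma), and with quantile normalization it was 0.04.

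H1f0 was the member that rose, to 40.1 and 46.5 FPKM in mutant embryos, against 24.6 and 25.5 in WT embryos. The libraries did not overlap, and the log2 change was 0.76 ± 0.13 (adjusted p = 0.000187, limma). In H2O embryos H1f0 was at 35.0 and 46.9, a range that holds both of these mutant libraries, so the rise is relative to WT mRNA. In embryos given mutant Hdac1 and then a second injection of H2O it was at 58.2 and 67.2, above both H2O libraries. Hdac1 mutant against H2O was not tested. H1f8, H2ax, H2aj and Macroh2a1 overlapped between the groups, with log2 changes of −0.27, −0.31, 0.12 and 0.25. The interval of Macroh2a1, −0.58 to 1.08, is too wide to read. Listed blood genes moved with these groups, summing to 102 to 114 FPKM in mutant and 3.16 to 5.42 in WT libraries, with Hbb-bs, Hbb-bt and Ptprc at 0 in both mutant libraries, and the cumulus and granulosa list summed to 30.6 to 41.9 in mutant and 117 to 118 in WT libraries, led by Nr5a2, with Fshr at 0 in all 4. Each of the 4 blood genes tested rose, and of 6 cumulus genes tested 2 rose and 2 fell. Their part in the changes was not tested.

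Mutant Hdac2 against WT Hdac2 lowered 5 of 9 members and raised 0, where 53% of genes passed, 30.8% higher and 22.2% lower. None of the 9 overlapped between the groups, again with no share of all genes to set beside that count. The median member stood at −0.59 and the median gene at 0.14, or −0.05 under quantile normalization, which put the share of called genes that rose at 48.2%, beside 58.1%. H3f3a was at 89.7 and 60.9 FPKM in Hdac2 mutant embryos, against 205 and 214 in Hdac2 WT embryos (−1.49 ± 0.25, adjusted p = 0.000108, limma). H2az2 was at 37.6 and 38.1 in mutant and 74.4 and 76.3 in WT embryos (−0.98 ± 0.21, adjusted p = 0.000929, limma). H2az1 was at 184 and 205 in mutant and 331 and 371 in WT embryos (−0.85 ± 0.20, adjusted p = 0.00185, limma). In each of these the mutant libraries lay below both WT libraries.

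H3f3b was at 162 and 186 FPKM in Hdac2 mutant and 265 and 257 in Hdac2 WT embryos (−0.59 ± 0.20, adjusted p = 0.0195, limma). H1f8 was at 18.4 and 16.6 in mutant and 31.9 and 23.4 in WT embryos (−0.61 ± 0.20, adjusted p = 0.0161, limma). Both were called on narrow margins. The adjusted p of H3f3b was 0.120 without mutant replicate 1, 0.0759 without WT replicate 1 and 0.0597 without WT replicate 2, and its change was 0.14 under quantile normalization. For H1f8 it was 0.0956 without mutant replicate 2 and 0.177 without WT replicate 1, and under quantile normalization neither H1f8 (adjusted p = 0.0751), nor H2az1 (0.636), nor H2az2 (0.0740) passed in limma. H1f0 was at 53.8 and 52.3 in mutant and 45.2 and 45.3 in WT embryos, without overlap, and did not pass (0.22 ± 0.13, adjusted p = 0.179, limma). Blood genes summed to 157 to 160.4 FPKM in mutant and 5.19 to 7.37 in WT libraries, with Hbb-bs and Hbb-bt at 0. Cumulus and granulosa genes summed to 45.7 to 47.0 in mutant and 118 to 134 in WT libraries, with Fshr at 0 and 2 of 6 tested higher and 2 lower. The leading gene of that list was Nr5a2 in replicate 1 of both groups, Foxl2 in mutant replicate 2 and Amhr2 in WT replicate 2. The part of either list was not tested.

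FK228, known as romidepsin, inhibits class I deacetylases, and culture in it asks for the effect of the enzymes' inhibition without injection. It called the most members of any comparison of treatments in mouse, 5 lower and 2 higher of 9, where 57.2% of genes passed, 26.3% lower and 31% higher. For 7 members the libraries did not overlap, which was not counted over all genes. The median member stood at −0.73 and the median gene at 0.15. H3f3a was at 61.2 and 46.8 FPKM in FK228 embryos, against 220.5 and 251 in DMSO embryos (−2.12 ± 0.25, adjusted p = 2.66e-06, limma), and 5.86% of the genes tested had a lower value. With copies added the change was −1.85.

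H2az2 was at 26.9 and 29.4 FPKM in FK228 and 100.3 and 91.8 in DMSO embryos (−1.73 ± 0.21, adjusted p = 3.32e-06, limma). H2az1 was at 173 and 145 in FK228 and 498 and 377 in DMSO embryos (−1.45 ± 0.20, adjusted p = 1.28e-05, limma). H3f3b was at 196 and 220.5 in FK228 and 370.0 and 322 in DMSO embryos (−0.73 ± 0.20, adjusted p = 0.00488, limma), a change that was −0.12 under quantile normalization (adjusted p = 0.694). FK228 libraries lay below both DMSO libraries for all of these.

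H2aj was at 23.3 and 30.4 FPKM in FK228 and 54.1 and 60.5 in DMSO embryos (−1.08 ± 0.30, adjusted p = 0.00667, limma). H1f0 was at 70.5 and 79.9 in FK228 and 48.8 and 45.8 in DMSO embryos (0.65 ± 0.13, adjusted p = 0.000593, limma). Macroh2a1 was at 4.53 and 3.05 in FK228 and 0.884 and 0.746 in DMSO embryos (1.38 ± 0.39, adjusted p = 0.00652, limma), so it stayed low in FPKM where it rose. Without FK228 replicate 1 the adjusted p of H2aj was 0.0626 and that of Macroh2a1 0.0598, and under quantile normalization H2aj was at 0.0938. H1f8 (0.08, 95% interval −0.34 to 0.51) and H2ax (0.01, −0.46 to 0.48) overlapped between the groups. Blood genes summed to 168 to 185 FPKM in FK228 and 9.45 to 15.4 in DMSO libraries, with Hbb-bs and Hbb-bt at 0 in FK228 replicate 1 and Ptprc at 0 in FK228 replicate 2. Cumulus and granulosa genes summed to 36.0 to 44.1 in FK228 and 126 to 136 in DMSO libraries, with 2 of 6 tested higher and 2 lower. The leading gene of that list was Nr5a2 in both DMSO libraries and FK228 replicate 1, and Amhr2 in FK228 replicate 2. Cd44 was at 0 in each of these libraries. The part of either list was not tested.

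**Figure D2:**
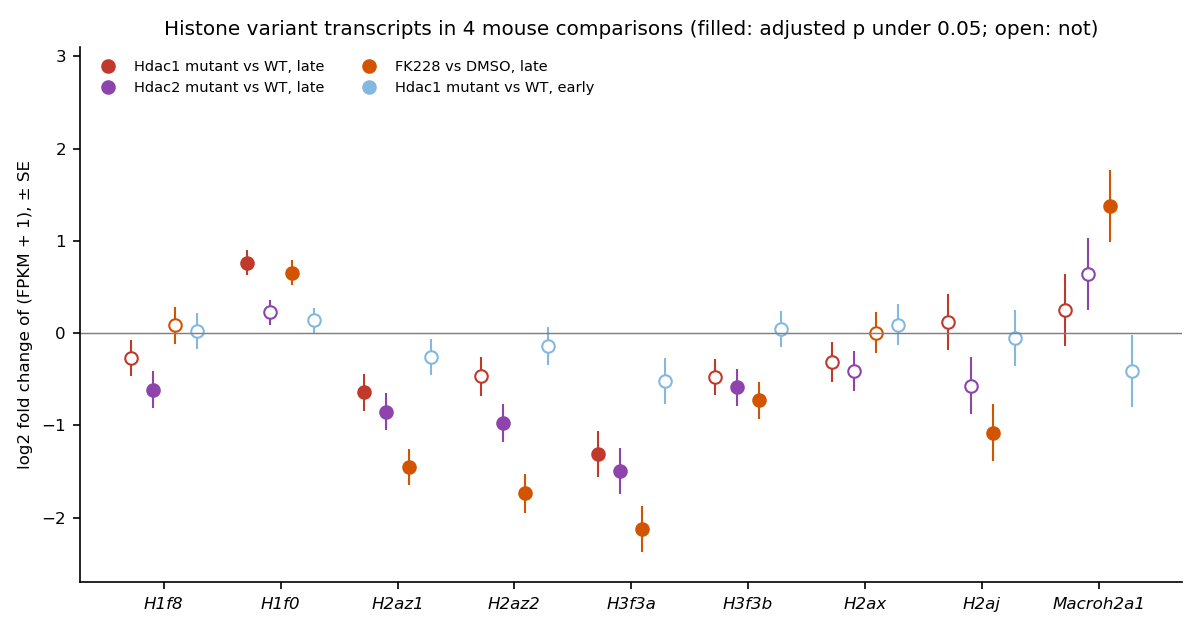
Log2 fold change (± SE) of the 9 members in 4 mouse comparisons of 2 libraries with 2. Filled points passed an adjusted p under 0.05 in limma and open points did not. H3f3a lies at −1.31, −1.49 and −2.12 in the late comparisons, H1f0 lies above 0 in all 4, and no early point is filled.

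Differences between these effects were tested themselves. The effects of mutant Hdac1 and mutant Hdac2 differed for 0 of 9 members, where 0.104% of genes passed, 0.0404% higher and 0.0635% lower, and 1658, with 1 member among them, had an unadjusted p under 0.05 (limma). That member was H1f0, whose effects differed by 0.54 ± 0.19 (95% interval 0.13 to 0.94, adjusted p = 0.352), and the interval for H3f3a was −0.57 to 0.92. Against FK228, the effect of mutant Hdac1 on H2az2 was smaller by 1.27 ± 0.29 (adjusted p = 0.0196, limma), 1 of 9 members where 6.97% of genes passed, 4.76% higher and 2.2% lower. That call was lost in a fit of the 4 groups alone (adjusted p = 0.0689) and when any of 5 single libraries was left out: Hdac1 WT replicate 1 (0.0641), FK228 replicates 1 (0.0584) and 2 (0.0530), or DMSO replicates 1 (0.0732) and 2 (0.0525). For H3f3a the FK228 fall was deeper by 0.80 ± 0.35, which did not pass (adjusted p = 0.177, limma).

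At the early 2-cell stage mutant against WT Hdac1 called 0 of 9 members, where 0.56% of genes passed, 0.231% higher and 0.329% lower, and 1057, with 0 members among them, had an unadjusted p under 0.05 (limma). The groups did not overlap for 3 members, with no share of all genes to set beside that. H3f3a was at 133 and 72.9 FPKM in mutant and 174 and 115 in WT embryos, overlapping (−0.52 ± 0.25, unadjusted p = 0.0528, adjusted p = 0.836, limma). H1f0 was at 137 and 132 in mutant and 126 and 118 in WT embryos (0.14 ± 0.13, 95% interval −0.15 to 0.42). The late effect exceeded the early effect for H1f0 by 0.62 ± 0.19 (adjusted p = 0.0173, limma), 1 of 9 members where 36.4% of genes passed, 21.2% higher and 15.2% lower. Without Hdac1 mutant late replicate 2, mutant early replicate 2 or WT early replicate 1 the adjusted p was 0.0647, 0.0501 or 0.0619. For H3f3a the late effect minus the early one was −0.79 ± 0.35 (adjusted p = 0.0925, limma), and with copies added this was −1.03 and passed (adjusted p = 0.00333). The Hdac1 transcript itself differed between mutant and WT embryos by 0.76 late (adjusted p = 0.00188, limma) and −0.74 early (not called). Its late effect minus the early one was 1.49 ± 0.25 (adjusted p = 0.000257, limma). What part the level of Hdac1 RNA had in these differences was not tested.

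Shares within a pair come from 1 library, so a single scaling factor per library leaves them as they are (quantile normalization does not). H3f3b held 76.2% and 82.5% of H3.3 FPKM in FK228 libraries, against 62.7% and 56.2% in DMSO libraries. It held 63.0% and 71.2% in Hdac1 mutant, against 49.2% and 57.2% in Hdac1 WT late libraries, and 64.3% and 75.3% in Hdac2 mutant, against 56.4% and 54.5% in Hdac2 WT libraries. In all 3 comparisons the mutant or FK228 libraries lay above the others. These shares depend on how reads were shared with the copies of H3f3a. Such copies summed to 51.9% of its FPKM in FK228 replicate 2, the library with 82.5%, and shares with copies added were not computed. H2O libraries spanned 54.3% and 69.6%, so single controls reached into the mutant range. With 2 libraries against 2 an exact permutation test cannot go below p = 0.33, and none was run.

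H2A.Z shares overlapped between groups with FK228 and with Hdac1, and lay lower without overlap in Hdac2 mutant libraries. H2az2 held 13.5% and 16.9% in FK228 and 16.8% and 19.6% in DMSO libraries, 14.7% and 21.3% in Hdac1 mutant and 11.6% and 21.9% in Hdac1 WT libraries, and 16.95% and 15.7% in Hdac2 mutant and 18.3% and 17.06% in Hdac2 WT libraries. H1f0 held 66.2% and 72.1% of the linker pair in Hdac1 mutant, against 47.0% and 56.5% in Hdac1 WT late libraries. It held 74.5% and 75.9% in Hdac2 mutant and 58.6% and 66.0% in Hdac2 WT libraries, and 73.8% and 79.3% in FK228 and 69.6% and 67.8% in DMSO libraries. These 3 sets did not overlap.

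**Figure D3:**
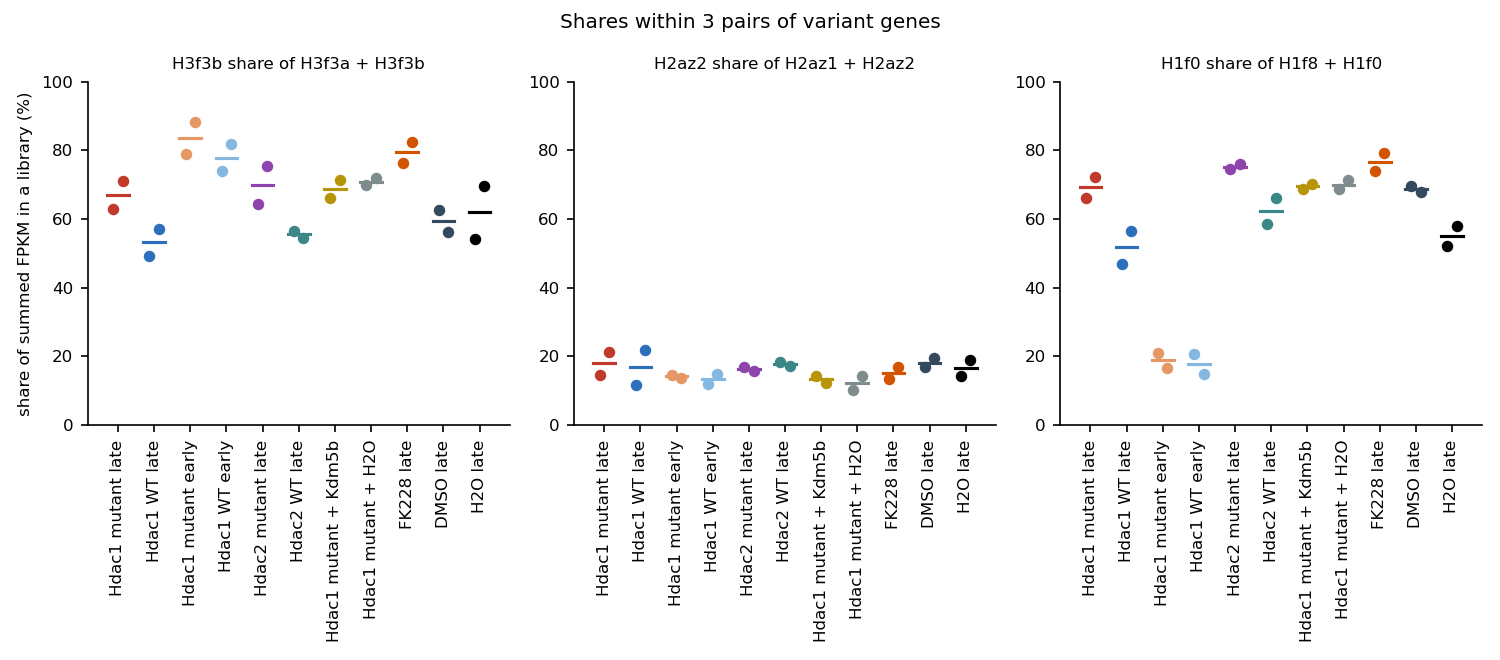
Share of a gene in the summed FPKM of its pair in each mouse library (dots; bars are means of 2). H3f3b takes its largest mean shares in early and in FK228 embryos, H2az2 stays between 10.1% and 21.9%, and H1f0 is at most 21.1% at the early stage and at least 47.0% at the late stage.

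WT mRNA against H2O compares injected enzyme with injection alone. Hdac1 WT lowered 1 of 9 members, where 2.19% of genes passed, 0.352% higher and 1.83% lower: H1f0 was at 24.6 and 25.5 FPKM in Hdac1 WT and 35.0 and 46.9 in H2O embryos (−0.67 ± 0.13, adjusted p = 0.0181, limma). The adjusted p was 0.0828 without Hdac1 WT replicate 1, 0.101 without H2O replicate 2, 0.516 in a fit of these 4 libraries alone and 0.104 under quantile normalization. H1f0 of Hdac1 mutant late embryos, at 40.1 and 46.5, lay within the range of the H2O libraries. That of embryos with mutant Hdac1 and then H2O, at 58.2 and 67.2, lay above it. Hdac2 WT raised 1 of 9 members, where 9.45% of genes passed, 6.59% higher and 2.86% lower: H2ax was at 46.7 and 56.1 in Hdac2 WT and 11.4 and 18.2 in H2O embryos (1.76 ± 0.22, adjusted p = 0.000197, limma). H2ax was also above H2O without overlap in Hdac1 WT embryos, at 32.7 and 22.6, and did not pass there (0.87 ± 0.22, adjusted p = 0.0546, limma). H2O embryos had the lowest H2ax of any late group.

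Kdm5b, a demethylase of histone H3 lysine 4, was given after mutant Hdac1, with H2O as its control. It called 0 of 9 members, where 1.04% of genes passed, 0.415% higher and 0.629% lower, and 2586, with 0 members among them, had an unadjusted p under 0.05 (limma). Libraries of 7 members did not overlap, a count without a share of all genes, so it shows no effect on the set. H2aj was at 44.1 and 53.3 FPKM after Kdm5b and 27.1 and 36.0 after H2O, without overlap (0.62 ± 0.30, 95% interval −0.03 to 1.27, adjusted p = 0.361, limma). H1f0 was at 53.7 and 50.1 after Kdm5b and 58.2 and 67.2 after H2O (−0.26 ± 0.13, adjusted p = 0.376, limma). H3f3a was at 135 and 132 after Kdm5b and 119.5 and 116 after H2O, with an interval of −0.35 to 0.71. Blood genes summed to 88.9 to 97.5 FPKM after Kdm5b and 131 to 143 after H2O, with Hbb-bs and Hbb-bt at 0 in each of these libraries. Of 4 blood genes tested 0 passed, and their part was not tested.

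Bovine 8/16-cell embryos held more of this RNA than mouse embryos as a share of each library, 0.516% to 0.756% against 0.205% to 0.411%, in values scaled separately. FK228 lowered 4 of 9 members and raised 2, where 49.6% of the 12590 bovine genes tested passed, 27.4% lower and 22.2% higher (limma on 4 libraries). Libraries of 8 members did not overlap, also without a count over all genes. The median member stood at −0.37 and the median gene at 0.06. H3F3B was the most abundant member at 534 and 505 FPKM in FK228 embryos, against 879 and 821 in DMSO embryos (−0.71 ± 0.15, adjusted p = 0.00583, limma), and without DMSO replicate 1 its adjusted p was 0.0514. H3F3A was at 308 and 269 in FK228 and 379.7 and 365 in DMSO embryos, without overlap, and did not pass (−0.37 ± 0.16, adjusted p = 0.0819, limma). H3F3B held 63.4% and 65.2% of the H3.3 pair in FK228 and 69.8% and 69.2% in DMSO libraries.

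H2AFV was at 69.8 and 59.7 FPKM in FK228 and 276 and 216 in DMSO embryos (−1.91 ± 0.18, adjusted p = 0.000118, limma). H2AFZ was at 342 and 326 in FK228 and 654 and 559 in DMSO embryos (−0.85 ± 0.16, adjusted p = 0.00283, limma). H2AFV held 16.95% and 15.5% of the H2A.Z pair in FK228 libraries, against 29.7% and 27.9% in DMSO libraries, which did not overlap. H2AFY, the macroH2A1 gene, was at 8.50 and 7.46 in FK228 and 52.8 and 40.9 in DMSO embryos (−2.41 ± 0.20, adjusted p = 6.81e-05, limma), and 1.95% of the genes tested had a lower value.

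The members that rose were H2AFJ, at 20.9 and 15.8 FPKM in FK228 and 3.003 and 3.81 in DMSO embryos (2.12 ± 0.22, adjusted p = 0.000181, limma), and the oocyte linker gene H1FOO, at 331 and 306 in FK228 and 155 and 157 in DMSO embryos (1.03 ± 0.15, adjusted p = 0.00086, limma). Listed oocyte genes summed to 1019 and 1052 FPKM in FK228 and 761 and 898 in DMSO embryos, where 3 of 7 tested rose and 0 fell (median 0.43). Sperm genes summed to 4.43 to 8.06 in FK228, led by SMCP, and to 0.239 to 1.14 in DMSO embryos. Only 1 of the 6 sperm genes with values passed the filter for testing, and it rose. TNP1 and TNP2 were at 0 in FK228 replicate 2. The part of either list was not tested. H1F0 was at 16.6 and 19.9 in FK228 and 13.2 and 25.0 in DMSO embryos, which overlapped (95% interval −0.65 to 0.64). H2AFX was at 185 and 186 in FK228 and 195 and 186.1 in DMSO embryos, with an interval of −0.38 to 0.30. Its lowest library held 185 FPKM, and the highest mouse library of H2ax 56.1 FPKM, on separately scaled values.

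**Figure D4:**
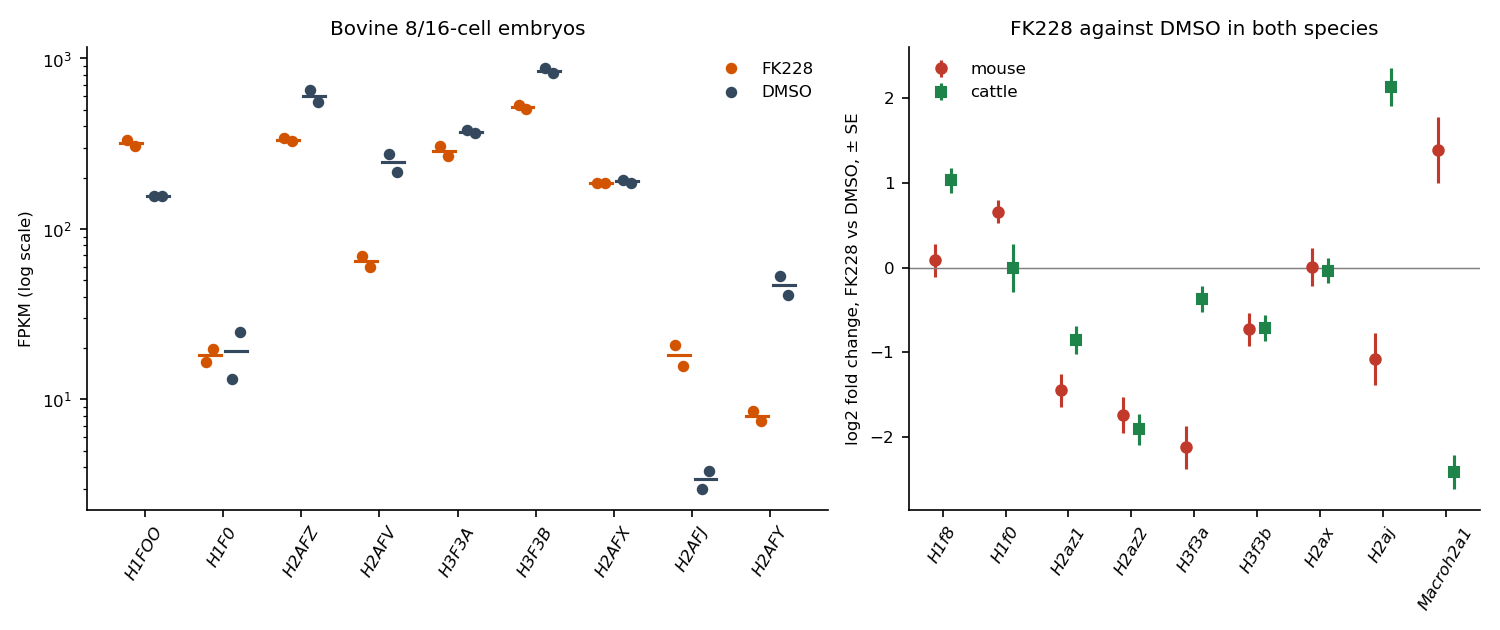
Left, FPKM of the bovine members on a log scale in FK228 and DMSO embryos (dots are libraries, bars means of 2). Right, log2 fold changes (± SE) of FK228 against DMSO in mouse and cattle. The H2A.Z genes and H3f3b lie below 0 in both species, and H2aj and Macroh2a1 lie on opposite sides of 0.

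The factors that place these variants were counted by list. Of 15 chaperones of H3.3 and of H3-H4, 12 fell and 1 rose with mutant Hdac1, 12 fell and 2 rose with mutant Hdac2, and 12 fell and 2 rose with FK228, with medians of −0.89, −0.82 and −1.15. Of all genes 21.6%, 22.2% and 26.3% fell and 30.5%, 30.8% and 31% rose in these comparisons. Under quantile normalization 8, 8 and 10 of the chaperones fell. Hira, the core of the complex that deposits H3.3 outside S phase, was at 5.67 and 7.46 FPKM in Hdac1 mutant and 42.3 and 34.8 in Hdac1 WT late embryos (−2.39 ± 0.23, adjusted p = 5.76e-07, limma). It was at 6.94 and 5.38 in FK228 and 41.4 and 41.1 in DMSO embryos, and at 3.11 and 2.20 in early Hdac1 WT embryos. Daxx, the H3.3 chaperone of heterochromatin, was at 7.05 and 6.10 in Hdac1 mutant and 32.0 and 16.6 in Hdac1 WT embryos. Chaf1b, a subunit of the replication-coupled chaperone CAF-1, went the other way, at 41.2 and 30.3 in Hdac1 mutant and 5.87 and 9.84 in Hdac1 WT embryos (2.07 ± 0.22, adjusted p = 1.09e-06, limma).

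Of 14 genes for H2A.Z exchange (the SRCAP, TIP60/p400 and INO80 machines and ANP32E), 9 fell and 3 rose with mutant Hdac1, 9 fell and 1 rose with mutant Hdac2, and 8 fell and 0 rose with FK228, with medians of −1.08, −1.24 and −1.09. Under quantile normalization 9, 9 and 8 fell and 3 rose with FK228. Srcap, the ATPase that loads H2A.Z, was at 21.03 and 23.7 FPKM in FK228 and 110.5 and 114 in DMSO embryos (−2.28 ± 0.21, adjusted p = 2.49e-07, limma). Ino80, an ATPase of the remodeller that bears its name, was at 2.83 and 3.86 in Hdac1 mutant and 15.7 and 15.7 in Hdac1 WT embryos (−1.95 ± 0.16, adjusted p = 9.34e-08, limma). Of 9 chaperones of H2A-H2B and linker histones 7 fell and 0 rose in each of these comparisons, and 5, 6 and 6 fell under quantile normalization. Set was at 141 and 140 in Hdac1 mutant and 495 and 458 in Hdac1 WT embryos, and Ptma, prothymosin alpha, at 100.3 and 101 in mutant and 356 and 331 in WT embryos. The medians of all genes in these comparisons were 0.17, 0.14 and 0.15, where 21.6%, 22.2% and 26.3% of all genes fell and 30.5%, 30.8% and 31% rose. At the early stage, and with Kdm5b against H2O, 0 genes of these 3 lists passed in limma, where 0.56% and 1.04% of all genes did.

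With FK228 in cattle 6 of 14 H3.3 and H3-H4 chaperones fell and 1 rose, 5 of 13 exchange genes fell and 1 rose, and 2 of 8 chaperones of H2A-H2B and linker histones fell and 1 rose, beside 27.4% of all bovine genes that fell and 22.2% that rose, a share that the last list does not exceed. DAXX was at 27.6 and 16.4 FPKM in FK228 and 103 and 78.7 in DMSO embryos (−2.03 ± 0.25, adjusted p = 0.000402, limma). Among exchange genes, ZNHIT1, of the SRCAP complex, was at 6.28 and 5.76 in FK228 and 33.9 and 29.0 in DMSO embryos.

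Between stages in Hdac1 WT embryos 7 H3.3 and H3-H4 chaperones rose and 5 fell, 7 exchange genes rose and 3 fell, and 2 chaperones of H2A-H2B and linker histones rose and 3 fell. Of all genes 28.8% rose and 28.1% fell, close to the shares of the last list. Set was at 495 and 458 FPKM in late embryos, against 21.4 and 20.5 in early ones (4.44 ± 0.18, adjusted p = 2.18e-11, limma). Vps72, an H2A.Z-binding subunit of SRCAP and TIP60, was at 9.65 and 11.4 late, against 168 and 143 early (−3.76 ± 0.19, adjusted p = 1.68e-10, limma). Npm2, the oocyte nucleoplasmin, was at 13.7 and 15.8 late, against 96.2 and 81.7 early.

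Members were also compared by their profile over libraries, as a description. Over the 18 late mouse libraries, which share their groups, H3f3a correlated with H2az2 at r = 0.839 and with H2az1 at 0.805, H2az1 with H2az2 at 0.804, H2az1 with H3f3b at 0.738 and with H2aj at 0.708. H1f0 ran against H3f3a at −0.645 and with Macroh2a1 at 0.618. H3f3a and H3f3b stood at 0.638. Over all 22 mouse libraries the most alike other gene was Nup107 for H3f3a (r = 0.969), Serf2 for H3f3b (0.942), Dync1li1 for H2az1 (0.986), Rbmxl1 for H2az2 (0.986), Lsm14a for H1f8 (0.994), Map3k6 for H1f0 (0.967), Thop1 for H2aj (0.989), Slc2a1 for Macroh2a1 (0.880) and Csnk1g2 for H2ax (0.843). These 22 libraries mix stages and share groups.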

How the data were processed

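PolyA RNA of 26 embryo libraries was read as FPKM that the authors deposited per gene, in a mouse and a bovine table. The submitters' processing notes name Trimmomatic, HISAT2, featureCounts, Cufflinks and DESeq2, and the builds GRCm38 and ARS-UCD1.2, without versions or roles. No count test was run, since FPKM are not counts. All per-sample columns were mapped to a sample.

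Members were matched by symbol or RefSeq synonym. A linear model (limma 3.58.1, R 4.3.3) took log2(FPKM + 1), which understates changes of low genes, of genes with at least 1 FPKM in at least 2 libraries: 17336 in all 22 mouse libraries (11 residual degrees of freedom) and 12590 in the 4 bovine ones (2). A coefficient was used per group with an empirical Bayes trend, two-sided p-values were adjusted over all genes of a comparison by Benjamini-Hochberg, and genes under 0.05 counted as called. The fit gave 10 comparisons and 3 differences between them. The script was tested on simulated data. Copies were found with blastn 2.17.0 against GENCODE M21, and tables and plots were made in Python 3.11.15 (pandas 2.3.3, matplotlib 3.10.9).

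The labels do not say that replicates were separate cultures, so p-values measure only the spread between these libraries. The members, lists and tests were chosen with earlier results of these data known. All members are named; from each list up to 3 called genes by size of change, with groups that did not overlap and 5 FPKM or more on average in one of them, were eligible to be named. Alternatives were a pseudocount of 0.1, no filter or a minimum of 5 FPKM, median-ratio and quantile scaling, a replicate block, a fit of only the groups compared, each library left out, and copies added.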

Additional observations from a re-analysis of the deposited data

Results flagged for a closer look

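The effect of mutant against WT Hdac1 on H1f0 differed between stages by a test of the difference itself: the log2 effect at the late 2-cell stage exceeded the early one by 0.62, with an adjusted p of 0.0173 in limma. It missed the threshold without Hdac1 mutant late replicate 2 (0.0647), mutant early replicate 2 (0.0501) or WT early replicate 1 (0.0619). The Hdac1 transcript itself differed in the same contrast by 1.49 (adjusted p = 0.000257, limma), and its part was not tested. Late H1f0 of these Hdac1 mutant embryos lay within the range of the H2O libraries, and that of embryos with mutant Hdac1 and then H2O (58.2 and 67.2 FPKM) above it. The effect on H2az2 differed between mutant Hdac1 and FK228, with a difference of 1.27 (adjusted p = 0.0196, limma). H2az2 was at −0.47 with mutant Hdac1 and −1.73 with FK228. This call was lost in a fit of those 4 groups alone (adjusted p = 0.0689, limma) and when any of 5 single libraries was left out (0.0525 to 0.0732).

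FK228 against DMSO moved 2 genes in opposite directions in mouse late 2-cell and bovine 8/16-cell embryos, with no overlap of libraries in either species. H2aj was at −1.08 in mouse and H2AFJ at 2.12 in cattle. Macroh2a1 was at 1.38 in mouse and H2AFY at −2.41 in cattle. The difference between species was not tested, because the values were scaled separately, and the embryos also differ in stage, time and medium.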

How the results depend on the processing

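Of 38 pairs of a member and a comparison that were called, all kept their direction and call under median-ratio scaling, a pseudocount of 0.1, no filter and a replicate block; 10 lost the call under quantile normalization, 3 in fits of only the groups compared, and 21 of 160 refits that left out a library lost it. With copies added, all 32 mouse calls held. Under quantile normalization the sign turned for H3f3b with mutant Hdac2 (0.14) and, among changes not called, for H2az2 (0.0397) and H3f3b (0.0738) with mutant Hdac1 and for H3f3a between stages in mutant embryos (0.57), which ranged over −0.65 to 0.21 with a library left out, above 0 without Hdac1 mutant early replicate 1. Of 79 pairs not called, 36 changed sign at least once, in 62 of 1030 values, 40 of them with a library left out, and 43 values became calls. The causes were not tested.

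Larger moves in the number of members called were as follows. Smaller ones are left out, and H2az1 with mutant Hdac1 lost its call under quantile normalization and in a fit of only the groups compared. With mutant Hdac1 at the late stage 5 were called in place of 3 under median-ratio scaling, and with mutant Hdac2 2 in place of 5 under quantile normalization. For Hdac1 WT against H2O 2 in place of 1 were called with a pseudocount of 0.1, a minimum of 5 FPKM or median-ratio scaling, 0 in a fit of only those groups, and 0 to 2 with a library left out. For Hdac2 WT against H2O 2 were called with a pseudocount of 0.1 and 1 to 2 with a library left out. For the late minus early effect of mutant Hdac1 2 in place of 1 were called with copies added and 0 to 2 with a library left out. For mutant Hdac1 minus FK228 0 were called in a fit of only those groups and 0 to 2 with a library left out.

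Another scaling moved the share of called genes that were higher by over 10 points in further comparisons. It was 41.2% for early Hdac1 mutant against WT and 51.7% with quantile normalization, 16.1% for Hdac1 WT against H2O and 34% with quantile normalization or 28.5% with median-ratio scaling, 69.8% for Hdac2 WT against H2O and 57.1% with median-ratio scaling, 39.8% for Kdm5b against H2O and 23.8% with median-ratio scaling, and 68.4% for mutant Hdac1 minus FK228 and 52.9% with quantile normalization or 49.2% with median-ratio scaling.

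The replicate numbers were not taken to pair the mouse libraries: over 55 pairs of groups the correlation of same-numbered deviations ran from −0.089 to 0.175 with a median of 0.023. The 3 above 0.1 were those among H2O, Hdac1 WT and Hdac1 mutant late embryos (0.142 to 0.175), a hint from the data that these numbers go together. In cattle the single pair had 0.233. With the replicate block 5 members in place of 3 were called with mutant Hdac1 at the late stage (H2az2, adjusted p = 0.0365, and H3f3b, 0.0227, limma, in addition) and 2 in place of 1 for its late minus early effect, and no call was lost. With 2 libraries a group and no absolute depth, small changes and low genes such as Macroh2a1 are poorly resolved.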

Other observations

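PolyA libraries still held some RNA of clustered, replication-dependent histone genes, which can share reads among near-identical copies. In cattle, 13 of 29 such genes tested rose with FK228 and 4 fell, where 22.2% of all genes rose and 27.4% fell, with a median log2 change of 0.54, beside 0.06 for all genes. Their FPKM summed to 1878 and 1698 in FK228 embryos, against 1163 and 1276 in DMSO embryos. In mouse 4 of 46 tested rose and 2 fell with FK228, where 31% of all genes rose and 26.3% fell. The median was 0.13, beside 0.15 for all genes. With mutant Hdac1 at the late stage 6 of the 46 rose and 1 fell, smaller shares than the 30.5% and 21.6% of all genes that rose and fell. Under quantile normalization 3 of the 46 rose and 4 fell. Slbp, which binds the stem-loop of their mRNA, was at 123 and 101 FPKM in Hdac1 mutant and 79.9 and 70.1 in Hdac1 WT late embryos, against 782 and 628 in early Hdac1 WT embryos.

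Of other variants, Cenpa, the centromeric H3, was at 43.9 and 43.4 FPKM in Hdac2 mutant and 175 and 153 in Hdac2 WT embryos (log2 change −1.88 ± 0.17, adjusted p = 2.95e-07, limma). H1f10, a further linker variant, was at 14.8 and 15.7 in Hdac1 mutant and 2.74 and 3.05 in Hdac1 WT late embryos (2.06 ± 0.37, adjusted p = 0.00022, limma), and was at 17.7 and 15.8 in early Hdac1 WT embryos.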
